A study of Homo sapiens with 12 samples.

Results

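The genes described here are the YAP and TEAD axis, a set of 10 genes taken by symbol from the known pathway: the coactivators YAP1 and WWTR1 (the gene of TAZ), the DNA-binding partners TEAD1 and TEAD4, the kinase LATS2, the angiomotin family member AMOTL2, the secreted matricellular proteins CYR61 and CTGF, the muscle ankyrin repeat protein ANKRD1 and the receptor tyrosine kinase AXL. They are 10 of the 60564 genes in the deposited table. All 10 were among the 12860 genes that reached at least 1 FPKM (fragments per kilobase of transcript, relative to all mapped fragments) in at least 3 of the 12 libraries and were tested. The RNA-seq libraries came from a pair of established lines of human pancreatic ductal adenocarcinoma, CFPAC-1 and BxPC-3, in normal culture (control) and after 48 h without serum (starved), with 3 libraries in each of the 4 groups. The study starved the cells to make them grow primary cilia. By its text 7% of CFPAC-1 cells had a cilium in control culture and 39% after starvation, while in BxPC-3 the share went from 5% to 78%. No gene was edited and no drug was added in any group, per the labels. Every starved library combines serum withdrawal with cilium growth, and the effects of both cannot be told apart. Nothing in the labels says whether the 3 libraries of a group are 3 cultures. The p-values rest on the spread between libraries, and this spread may be technical.

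YAP1 and TAZ carry no DNA-binding domain of their own and act on genes through the TEAD factors. The Hippo kinases, ending in LATS1 and LATS2, phosphorylate both coactivators and hold them in the cytoplasm, and angiomotins bind them directly. CYR61, CTGF, ANKRD1 and AMOTL2 are used widely as readouts of nuclear YAP and TAZ, LATS2 and AMOTL2 are at once targets and inhibitors, and serum withdrawal is a classical way to lower YAP activity in cultured cells. YAP is needed in the mouse pancreas for acinar cells to take on a ductal form. Transcript levels do not report the phosphorylation or the place of YAP and TAZ in the cell, and neither was measured here.

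The TEAD factors bind the core GGAATG. The stretches of 250 bases upstream of the RefSeq transcription starts of CTGF, ANKRD1 and AMOTL2 (its start at the lower coordinate) are shown, because CTGF and ANKRD1 are the members with more than 1 copy of the core among the 7 that could be searched and AMOTL2 was the member that passed the test for starvation. All are on the minus strand of GRCh38.p14 and are written 5′ to 3′ in the direction of the gene, with GGAATG or its reverse complement CATTCC in capitals. CTGF is chr6:131951373-131951622, ANKRD1 is chr10:90921088-90921337 and AMOTL2 is chr3:134374448-134374697.
CTGF: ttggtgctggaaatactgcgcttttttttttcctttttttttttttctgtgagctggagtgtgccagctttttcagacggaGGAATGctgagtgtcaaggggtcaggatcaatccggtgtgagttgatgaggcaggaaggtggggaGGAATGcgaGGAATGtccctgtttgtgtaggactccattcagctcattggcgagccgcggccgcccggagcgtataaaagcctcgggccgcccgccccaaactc
ANKRD1: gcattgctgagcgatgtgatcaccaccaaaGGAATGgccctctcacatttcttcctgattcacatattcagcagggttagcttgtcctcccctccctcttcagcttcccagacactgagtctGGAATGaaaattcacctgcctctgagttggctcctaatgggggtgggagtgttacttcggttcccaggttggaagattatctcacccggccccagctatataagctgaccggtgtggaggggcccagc
AMOTL2: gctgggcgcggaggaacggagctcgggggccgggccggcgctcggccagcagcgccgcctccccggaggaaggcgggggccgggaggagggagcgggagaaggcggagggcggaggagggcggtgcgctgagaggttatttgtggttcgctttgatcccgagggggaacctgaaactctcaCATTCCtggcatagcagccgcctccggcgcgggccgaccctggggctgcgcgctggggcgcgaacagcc

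Counted back from the start site, the first bases of the cores lay at -169, -104 and -95 in CTGF, at -220 and -128 in ANKRD1 and at -69 in AMOTL2. Of the 10 members, 7 had an entry in the RefSeq promoter table, with 10 windows of 300 bases (250 before and 50 after a start). The entries missing were CYR61, TEAD1 and TEAD4. On either strand the core was found in 6 of the 7: YAP1 at -162, LATS2 at 9 and AXL at -212 of its second start besides those shown. Both WWTR1 windows lacked it. Over all 35116 RefSeq windows, 14.0% held the core (6 of the 10 member windows), 1.37% held it at least 2 times and 0.128% at least 3 times. Per gene the core was in a window of 16.7% of the 27305 genes with an entry. A match is a description of these letters and does not show binding.

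**Figure D1:**
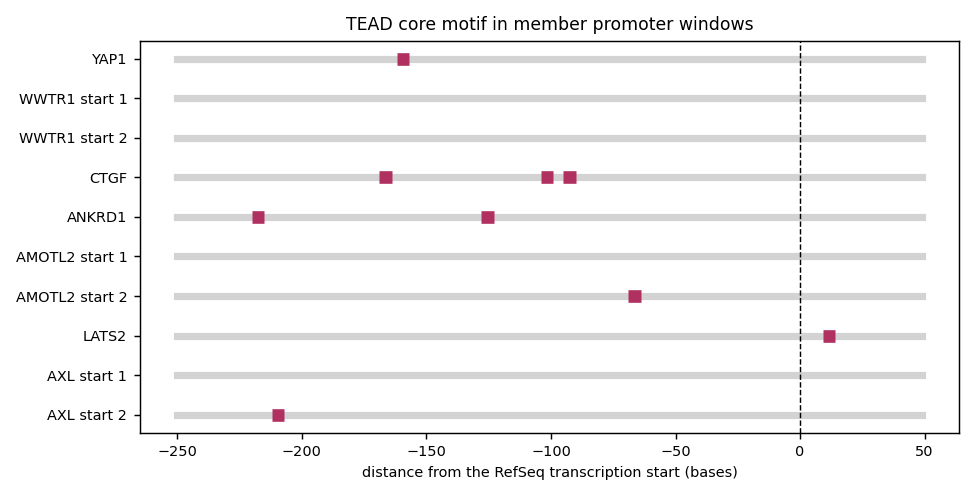
Positions of the TEAD core in the RefSeq promoter windows of the 7 matched members; the x axis gives the distance from the transcription start in bases, grey bars are the windows and squares are matches on either strand. CTGF holds 3 matches, ANKRD1 holds 2, and both WWTR1 windows are empty.

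The libraries did not all sort by their labels. The pair CFPAC-1 control 2 and 3 had a mutual r of 0.990 over the tested genes but a mean r of 0.803 with the other 4 CFPAC-1 libraries, which correlated at 0.944 among themselves (genes are not independent replicates). KRT19, a duct keratin, stood at 7.42 and 7.67 FPKM in these 2 libraries and at 254 to 627 FPKM in the other CFPAC-1 libraries. EPCAM, an epithelial adhesion protein, stood at 0.963 and 1.04 against 11.2 to 14.8 FPKM, and CDH1 at 0.192 and 0.180 against 0.423 to 0.892. The duct markers did not all drop there. KRT8 overlapped, at 270 and 316 against 50.7 to 274 FPKM. KRT18 and SOX9 were higher, at 318 and 311 against 125 to 254 FPKM and at 55.1 and 53.0 against 13.2 to 18.9 FPKM. Every starvation difference of a member in CFPAC-1 is therefore given with and without control 2 and 3. The fit without them takes the spread of the lone control from the other groups, an assumption. That control is a library 1, so group and library number are mixed in its differences. Of 8 duct markers, 7 were at 1 FPKM or more in every BxPC-3 library and 5 or 6 in CFPAC-1, where KRT7 (0.340 to 2.01 FPKM) and the adhesion protein CDH1 (0.180 to 0.892 FPKM) were low. The chloride channel CFTR did not exceed 0.0181 FPKM anywhere. Summed over 9 fibroblast markers, FPKM was 26.0 to 110 in CFPAC-1 control 1 and the starved CFPAC-1 libraries, nearly all of it LUM. The sum was 7.93 and 8.10 in control 2 and 3, and 1.37 to 1.95 in BxPC-3. COL1A1, COL3A1 and THY1 went the other way from LUM. In control 2 and 3 they had 4.27 and 4.28, 1.98 and 2.06, and 1.61 and 1.72 FPKM. In the other CFPAC-1 libraries they had at most 0.140, 0.160 and 0.0215 FPKM. PDGFRA stayed at or below 0.210 FPKM and the leukocyte marker PTPRC at or below 0.00981 FPKM in all 12, while CD68, a lysosomal protein of the immune list, stood at 37.1 to 47.8 FPKM in starved CFPAC-1 and at 6.64 to 12.8 FPKM in its controls. The summed 5 endothelial markers reached at most 0.631 FPKM. The part of these differences in the results below was not tested. Within each group libraries 2 and 3 also lay close to each other. Their median squared difference was 1.77 to 3.30 times that expected from counting noise. Between library 1 and either of them it was 22.2 to 73.1 times. Both ranges rest on estimated fragments of genes with 1 transcript, not on recovered reads. Libraries 2 and 3 were counted separately, and the calls of members are also given with both averaged into 1 sample. Depth was estimated at 16400000 to 25900000 fragments per library from the spacing of low values.

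Both coactivators were expressed in every library, YAP1 above WWTR1 in 10 of the 12, and neither passed the test for starvation in either line. In CFPAC-1, YAP1 stood at 25.7, 30.1 and 29.1 FPKM in the controls and at 23.3, 13.8 and 17.4 FPKM in the starved libraries (order of library 1, 2 and 3 throughout). The groups did not overlap, and every starved library was the lower. Its difference in mean log2(FPKM + 1) was -0.64 with a standard error of 0.24, and the adjusted p was 0.0848 (limma, Benjamini-Hochberg over all tested genes). Without control 2 and 3 it was -0.50 (adjusted p = 0.508). BxPC-3 had 25.4, 20.1 and 22.1 FPKM in control and 33.0, 18.6 and 20.6 FPKM when starved, overlapping groups with a difference of 0.056 (95% interval -0.47 to 0.58). In a bulk library fewer cells expressing a gene and less RNA per cell cannot be told apart, here and below.

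WWTR1 varied more than YAP1. Its CFPAC-1 controls had 8.52, 26.4 and 25.9 FPKM and the starved libraries 7.76, 5.78 and 7.12 FPKM. The groups did not overlap, but control 1 lay within 1 FPKM of the highest starved library while control 2 and 3 were far above it. The difference was -1.29 (standard error 0.45, limma adjusted p = 0.0682) with all libraries and -0.28 (adjusted p = 0.851) without control 2 and 3. In BxPC-3 the controls showed the same division, 9.73, 23.2 and 25.7 FPKM, and the starved libraries had 13.8, 6.59 and 7.31 FPKM. Library 1 was thus lowest in control and highest when starved, the groups overlapped, and the difference was -0.97 (standard error 0.45, adjusted p = 0.598).

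Among the DNA-binding partners TEAD4 was the higher member and TEAD1 the lower. In CFPAC-1, TEAD4 had 14.4, 12.7 and 14.3 FPKM in control and 6.47, 9.98 and 10.1 FPKM when starved, with no overlap. The difference was -0.61 (standard error 0.21) and missed the threshold, with a limma adjusted p of 0.0627. It was -0.67 without control 2 and 3 (adjusted p = 0.283), and it passed with all libraries when FPKM was scaled to genes that are not mitochondrially encoded (-0.73, adjusted p = 0.0265). BxPC-3 gave 17.5, 14.0 and 12.6 FPKM in control and 13.0, 17.6 and 17.5 FPKM when starved, which overlapped, with a difference of 0.12 (95% interval -0.34 to 0.57). TEAD1 lay between 0.701 and 5.68 FPKM over the 12 libraries, the highest being BxPC-3 control 2. Its starvation difference was -0.064 in CFPAC-1 (95% interval -0.99 to 0.86; -0.19 without control 2 and 3) and -0.052 in BxPC-3 (-0.98 to 0.88).

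The rest of the TEAD list, 10 genes with YAP1 and WWTR1 among them, adds the paralogues TEAD2 and TEAD3 and the VGLL cofactors, which bind TEADs in place of YAP. Of its 8 tested genes 0 passed the test for starvation in either line, beside 16.6% of all genes in CFPAC-1 and 0.334% in BxPC-3. By limma at an unadjusted p below 0.05 there were 4 of 8 in CFPAC-1 (YAP1, WWTR1, TEAD4 and VGLL4), beside 36% of all tested genes, and 1 of 8 in BxPC-3 (VGLL1), beside 8.52%. TEAD2 stood at a mean of 10.0 ± 0.635 FPKM (SD, n = 3) in CFPAC-1 control, 7.09 ± 1.69 when starved, 5.52 ± 1.90 in BxPC-3 control and 4.98 ± 0.150 when starved. TEAD3 had means of 4.24 ± 3.72, 6.07 ± 0.266, 12.8 ± 4.82 and 13.7 ± 2.03 FPKM in the same order. VGLL4 stood at 13.4 ± 5.71, 7.17 ± 1.27, 5.44 ± 1.40 and 5.55 ± 1.85 FPKM. VGLL1 was listed at 0 in all 6 CFPAC-1 libraries and stood at 3.16 to 6.44 FPKM in BxPC-3.

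**Figure D2:**
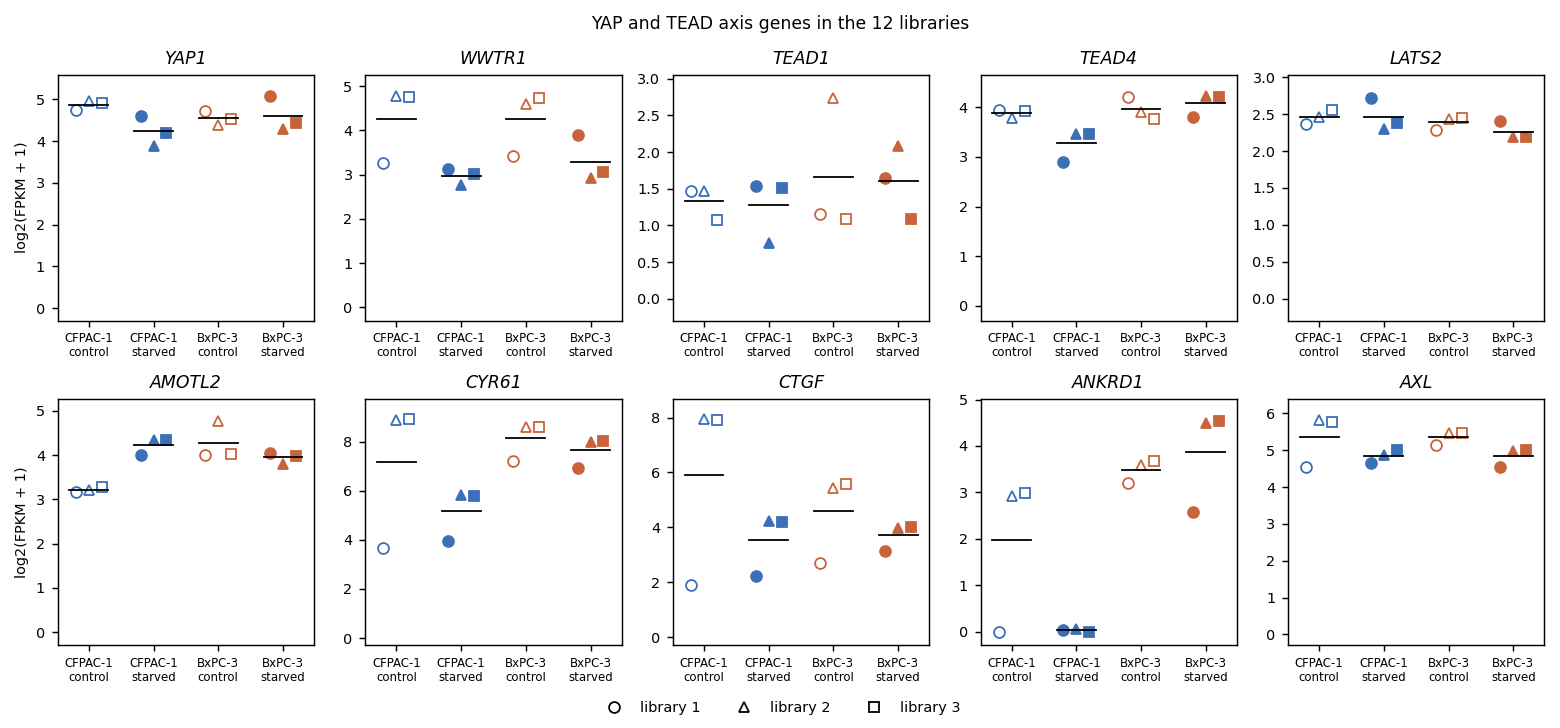
Level of the 10 members in each library; the y axis is log2(FPKM + 1), the x axis the 4 groups, open symbols control and filled symbols starved, with shape giving the library number and bars the group means. For CYR61 and CTGF the circle of library 1 is the lowest point of every group, and AMOTL2 in starved CFPAC-1 lies above all its controls.

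AMOTL2 was the single member to pass the test for starvation. Its CFPAC-1 levels were 8.00, 8.23 and 8.78 FPKM in control and 15.0, 19.3 and 19.3 FPKM when starved. The 3 controls were nearly equal, control 1 included, and every starved library lay above them. It rose by 1.01 on the log2(FPKM + 1) scale (standard error 0.22, 95% interval 0.53 to 1.48, limma adjusted p = 0.0134), from a mean of 8.34 ± 0.399 to 17.9 ± 2.46 FPKM (SD, n = 3). Of all tested genes 16.6% passed in this comparison, 7.85% as higher, beside 1 of the 10 members. Higher genes made up 47.2% of the calls, and 30.5% after scaling to genes that are not mitochondrially encoded. Leaving out control 2 and 3 together gave 1.06 with an adjusted p of 0.119, and averaging libraries 2 and 3 gave 0.96 with 0.335. The call was also lost when any one of control 2, control 3, starved 2 or starved 3 was left out (adjusted p 0.0502 to 0.0576, difference 0.95 to 1.04).

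In BxPC-3, AMOTL2 had 15.1, 26.5 and 15.2 FPKM in control and 15.7, 13.0 and 14.7 FPKM when starved. Control 2 was far above the other controls, the groups overlapped, and the difference was -0.32 (standard error 0.22, adjusted p = 0.759). The AMOTL2 changes of the lines differed by -1.33, BxPC-3 minus CFPAC-1 (standard error 0.31, limma adjusted p = 0.0466), in a test of the difference itself that 2.45% of all genes passed. Of those 54.6% were higher, 66.7% after scaling to genes that are not mitochondrially encoded and 36.0% after quantile normalization. Without CFPAC-1 control 2 and 3 the difference was -1.38 with an adjusted p of 0.142, and 0.428% of all genes passed. Averaging libraries 2 and 3 gave -1.19 with an adjusted p of 0.876, and with the library number as a block the call was lost too (adjusted p = 0.0560). Of the 12 fits that left out 1 library, 4 kept the call and 8 lost it (adjusted p up to 0.128).

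Of the angiomotin relatives of AMOTL2, AMOT was not tested and did not exceed 0.636 FPKM, reached in CFPAC-1 control 3. AMOTL1 stood at means of 2.69 ± 0.279 and 2.17 ± 1.28 FPKM in control and starved CFPAC-1 and 4.88 ± 1.91 and 8.21 ± 2.41 FPKM in BxPC-3, with starvation differences of -0.29 (adjusted p = 0.518) and 0.66 (0.587).

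LATS2 was among the steadiest members. It ran from 3.56 to 5.58 FPKM over the 12 libraries, and its starvation difference was -0.0019 in CFPAC-1 (95% interval -0.36 to 0.36; 0.095 without control 2 and 3) and -0.13 in BxPC-3 (-0.48 to 0.23). Of the 22 genes of the Hippo core and its upstream regulators, 20 were tested, and in CFPAC-1 1 rose, 2 fell and 17 did not pass, 3 of 20 called beside 16.6% of all genes. The scaffold SAV1 rose by 0.73 from 4.17, 3.45 and 3.75 to 8.58, 5.50 and 7.08 FPKM (limma adjusted p = 0.0191). The kinase LATS1 fell by 1.20 (adjusted p = 0.0344), from 1.94, 4.58 and 4.42 to 1.93, 0.529 and 0.632 FPKM, and its library 1 values were nearly equal in both conditions. The tumour suppressor NF2 (merlin) fell by 0.83 (adjusted p = 0.0322), from 8.86, 8.32 and 8.94 to 4.91, 3.16 and 5.57 FPKM. Without control 2 and 3, SAV1 differed by 0.62, LATS1 by -0.60 and NF2 by -0.86. These values rest on 1 control library, and no call is drawn from them. The median of the 20 genes was -0.0015, beside -0.092 over all tested genes. In BxPC-3 0 of 20 passed by limma beside 0.334% of all genes, and 1 (SAV1) had an unadjusted p below 0.05 beside 8.52%. The median there was -0.12 beside 0.063.

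CYR61 and CTGF, the secreted targets, had the widest ranges in FPKM of the 10 members over the 12 libraries, and neither passed the test for starvation. CYR61 had 11.7, 473 and 481 FPKM in CFPAC-1 control and 14.4, 56.0 and 54.0 FPKM when starved. Control 2 and 3 were far above everything else in that line, while control 1 was the lowest library of all 6. The difference was -1.97 with all libraries (95% interval -4.53 to 0.59, adjusted p = 0.246) and turned to 1.52 (adjusted p = 0.354) without control 2 and 3. BxPC-3 had 147, 386 and 382 FPKM in control and 121, 254 and 257 FPKM when starved, overlapping groups with a difference of -0.48 (-3.04 to 2.07, adjusted p = 0.981).

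CTGF followed a similar division by library. Its values were 2.77, 243 and 241 FPKM in CFPAC-1 control and 3.73, 17.6 and 17.5 FPKM when starved. In estimated fragments these were 167 in control 1 and 11975 in control 2, so library 1 is not at the detection limit. The difference was -2.36 (95% interval -5.42 to 0.69, adjusted p = 0.243) and turned to 1.64 (adjusted p = 0.477) without control 2 and 3. BxPC-3 had 5.57, 42.5 and 46.8 FPKM in control and 7.83, 14.9 and 15.2 FPKM when starved. Libraries 2 and 3 of the control were the highest, library 1 the lowest in both conditions, and the difference was -0.86 (-3.92 to 2.19, adjusted p = 0.946).

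ANKRD1 was nearly silent in part of the CFPAC-1 libraries. It was listed at 0 in control 1, stood at 6.56 and 6.89 FPKM in control 2 and 3, and at 0.0248, 0.0326 and 0 FPKM when starved. About 1 fragment stood behind each of the starved values above 0, by the depth estimate. The difference on the log2(FPKM + 1) scale was -1.94 (standard error 0.72, limma adjusted p = 0.0799), and 0.027 without control 2 and 3 (1.00). In BxPC-3 it had 8.25, 11.0 and 11.8 FPKM in control and 4.94, 21.4 and 22.3 FPKM when starved, so the starved libraries were both the lowest and the highest of the line, with a difference of 0.38 (95% interval -1.20 to 1.95).

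AXL, a receptor of the TAM family and a target of YAP in several cancers, had 22.1, 55.5 and 53.4 FPKM in CFPAC-1 control and 24.3, 28.0 and 31.2 FPKM when starved. The difference was -0.53 (standard error 0.31, adjusted p = 0.239) and 0.31 (adjusted p = 0.596) without control 2 and 3. In BxPC-3 it had 34.1, 43.1 and 43.5 FPKM in control and 22.2, 30.5 and 30.9 FPKM when starved, and all 3 starved libraries were below all controls. The difference of -0.52 (standard error 0.31) did not pass the limma test (adjusted p = 0.713).

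Counted over the members, 1 rose, 0 fell and 9 did not pass in CFPAC-1, and 5 had an unadjusted p below 0.05, beside 36% of all tested genes. The median difference of the 10 was -0.62, beside -0.092 over all genes, and 0.061 without control 2 and 3. In that fit 0 of 10 members passed, 1 had an unadjusted p below 0.05, and 1.73% of all genes passed. In BxPC-3 0 of 10 passed by limma and 0 had an unadjusted p below 0.05, beside 0.334% and 8.52% of all genes, and the median was -0.22 beside 0.063. Groups did not overlap for YAP1, WWTR1, TEAD4 and AMOTL2 in CFPAC-1, 4 of 10 beside 31.6% of all genes, and for AXL alone in BxPC-3, 1 of 10 beside 17.2%.

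**Figure D3:**
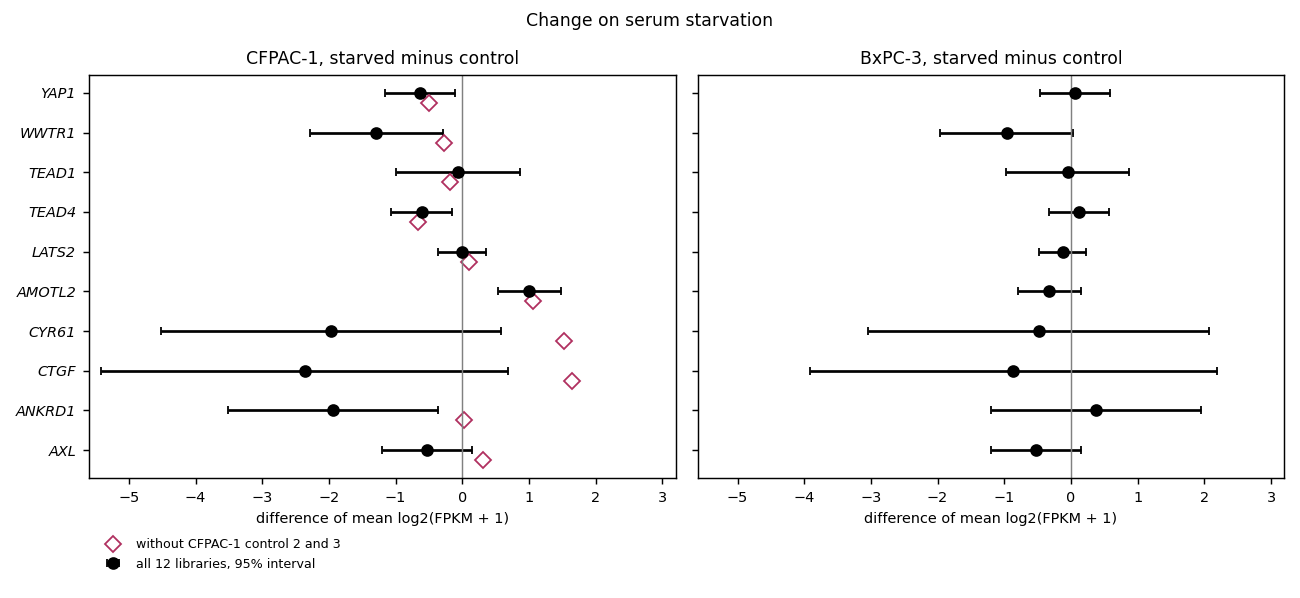
Difference of mean log2(FPKM + 1), starved minus control, for the 10 members in each line; circles with bars are all 12 libraries with the 95% interval from limma, diamonds the CFPAC-1 values without control 2 and 3. For CYR61 and CTGF the diamond lies on the other side of 0 from the circle, and for AMOTL2 both lie near 1.

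The starvation difference of several members was not the same within library 1 as within libraries 2 and 3. For CTGF it was 0.33 in CFPAC-1 and 0.43 in BxPC-3 within library 1, against -3.71 and -1.51 within libraries 2 and 3. WWTR1 gave -0.12 and 0.46 within library 1 against -1.87 and -1.68. CYR61 gave 0.28 and -0.28 against -3.09 and -0.59. The direction was not shared by all members. ANKRD1 gave 0.035 and -0.64 against -2.93 and 0.88, and TEAD4 gave -1.04 and -0.41 against -0.39 and 0.38. AMOTL2 in CFPAC-1 was higher when starved in both comparisons, by 0.83 and 1.09, and AXL in BxPC-3 was lower in both, with differences of -0.60 and -0.48. These are differences of single or averaged libraries and carry no test. CYR61, CTGF and AXL were lowest in library 1 of all 4 groups, as were 4.44% of all tested genes. The labels do not say what the library number stands for.

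**Figure D4:**
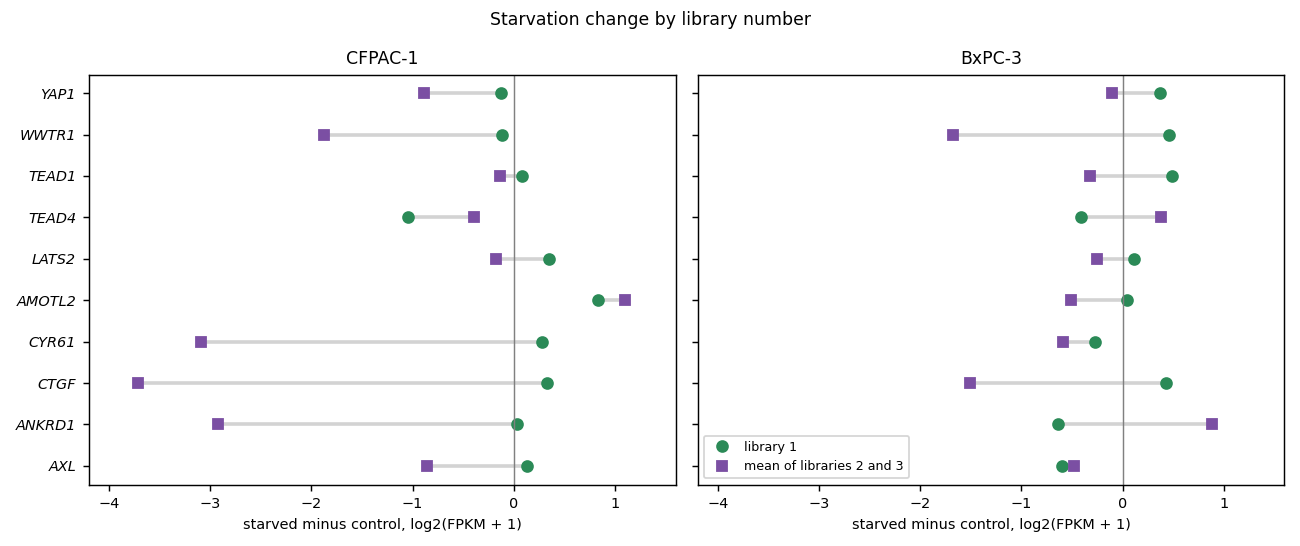
Starved minus control difference in log2(FPKM + 1) taken within library 1 (circles) and within the mean of libraries 2 and 3 (squares), per member and line. Squares lie far left of circles for CTGF and WWTR1 in both lines, and the AMOTL2 points of CFPAC-1 lie together near 1.

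Between the lines, BxPC-3 had more AMOTL2 than CFPAC-1 in control culture and more TEAD4 and ANKRD1 when starved. In control culture AMOTL2 was higher by 1.05 (standard error 0.22, limma adjusted p = 0.00435), with every BxPC-3 control at 15.1 FPKM or more and every CFPAC-1 control at 8.78 or less. It was 1 of 10 members called, beside 26.2% of all genes. Groups did not overlap for YAP1 (lower), ANKRD1 and AMOTL2 (higher), 3 of 10 beside 42.3% of all genes. ANKRD1 had 8.25 to 11.8 against 0 to 6.89 FPKM, and its difference of 1.52 did not pass (adjusted p = 0.144). Without CFPAC-1 control 2 and 3 the members called were 4, beside 27.5% of all genes: CYR61 by 4.46 (adjusted p = 0.00265), ANKRD1 by 3.49 (0.00282), AMOTL2 by 1.10 (0.0288) and AXL by 0.83 (0.0422). CYR61 was 147 to 386 FPKM in the BxPC-3 controls against 11.7 FPKM in the lone CFPAC-1 control.

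Among the starved libraries, which include neither of the CFPAC-1 controls in doubt, 2 of 10 members were called, both higher in BxPC-3, beside 36.2% of all genes. ANKRD1 was higher by 3.84 on the log2(FPKM + 1) scale (standard error 0.72, limma adjusted p = 0.00190), with 4.94 to 22.3 FPKM in BxPC-3 and at most 0.0326 FPKM in CFPAC-1. TEAD4 was higher by 0.80 (standard error 0.21, adjusted p = 0.0112), 13.0 to 17.6 against 6.47 to 10.1 FPKM. Both calls held in all 12 fits that left out 1 library, and the AMOTL2 call in control culture did too. With libraries 2 and 3 averaged, adjusted p was 0.0542 for ANKRD1, 0.145 for TEAD4 and 0.0943 for AMOTL2 in control culture. Groups did not overlap for TEAD4, CYR61 and ANKRD1, 3 of 10 beside 54.5% of all genes. CYR61 had 121 to 257 against 14.4 to 56.0 FPKM, a difference of 2.46 with an adjusted p of 0.123. When CFPAC-1 control 2 and 3, which enter the shared spread, were left out, CYR61 passed too with 0.00577, 3 of 10 members beside 44% of all genes. With the library number as a block, which paired the libraries of the lines, CYR61 also passed (adjusted p = 0.0310). It passed as well when only the starved groups were fitted (limma adjusted p = 0.0107). For CTGF the starved lines differed by 0.16 (95% interval -2.89 to 3.21), for YAP1 by 0.37 (-0.16 to 0.90), for WWTR1 by 0.32 (-0.68 to 1.31) and for AXL by -0.0061 (-0.68 to 0.67).

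Of the regulators, AJUBA, a LIM protein that binds LATS kinases, separated the lines in both conditions. It stood at 44.8 to 72.8 FPKM in BxPC-3 and at 7.74 to 16.1 FPKM in CFPAC-1, and was higher in BxPC-3 by 2.44 in control culture (limma adjusted p = 1.6e-05) and 2.15 when starved (3.9e-05). In control culture 5 of the 20 tested Hippo genes were higher and 2 lower in BxPC-3, 7 of 20 beside 26.2% of all genes. When starved 4 were higher and 1 lower, 5 of 20 beside 36.2%. SAV1 was higher by 1.09 and 0.78 in the respective comparisons, RASSF6 by 1.45 and 1.17 and TAOK3 by 0.87 and 0.73. WWC1 (KIBRA) was higher by 1.12 in control culture, where NF2 differed by -0.76. Without CFPAC-1 control 2 and 3 the control-culture calls of RASSF6, TAOK3, WWC1 and NF2 were lost (limma adjusted p 0.0559, 0.535, 0.726 and 0.113). RASSF1 was lower when starved, at 3.96 to 7.21 against 11.1 to 16.0 FPKM. Of the 8 tested genes of the TEAD list, 2 were higher (TEAD3 and VGLL1) and 2 lower (TEAD2 and VGLL4) in control culture, beside 26.2% of all genes called. When starved TEAD4 and VGLL1 were higher, 2 of 8 beside 36.2%. Without CFPAC-1 control 2 and 3 the TEAD2, TEAD3 and VGLL4 calls were lost (adjusted p 0.105, 0.304 and 0.544). AMOTL1 was higher in starved BxPC-3 by 1.58 (adjusted p = 0.00222).

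A wider list of 22 YAP and TEAD target genes, with the members CYR61, CTGF, ANKRD1, AXL, AMOTL2 and LATS2 on it, did not move as a block. Of its 20 tested genes 4 rose, 1 fell and 15 did not pass in starved CFPAC-1, 5 of 20 called beside 16.6% of all genes, and 4 higher beside 7.85%. IGFBP3, a binding protein of insulin-like growth factors, had 30.8, 2.43 and 2.31 FPKM in control and 243, 267 and 276 FPKM when starved. Every starved library was far above every control, and IGFBP3 rose by 5.20 (standard error 0.77, limma adjusted p = 0.00299). F3, tissue factor, rose by 3.47 (adjusted p = 0.0239), from 20.4, 0.204 and 0.307 to 44.3, 31.8 and 30.0 FPKM, and most of that distance lay in control 2 and 3. CCDC80, a matrix protein, rose by 0.91 and AMOTL2 by 1.01. ASAP1, a GTPase-activating protein of Arf, fell by 1.19 (adjusted p = 0.0309), from 17.1, 26.0 and 25.5 to 16.6, 6.02 and 7.75 FPKM. Without control 2 and 3, IGFBP3 differed by 3.05, F3 by 0.75, CCDC80 by 0.56 and ASAP1 by -0.82. These values rest on 1 control library, and no call is drawn from them.

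The median of the 20 target genes in CFPAC-1 was -0.34, beside -0.092 over all genes, and 0.25 beside -0.052 without control 2 and 3. In BxPC-3 0 of 20 passed by limma beside 0.334% of all genes, and 1 (NT5E) had an unadjusted p below 0.05 beside 8.52%. The median there was -0.19 beside 0.063. Between the lines when starved, F3 (528 to 714 against 30.0 to 44.3 FPKM), NT5E (41.9 to 64.9 against 19.5 to 30.6 FPKM) and ANKRD1 were higher in BxPC-3, and IGFBP3 and ASAP1 lower. These were 3 higher and 2 lower of 20 tested, beside 36.2% of all genes called. F3 differed by 4.17, NT5E, an ectonucleotidase, by 1.11 and IGFBP3 by -7.33, with adjusted p of 0.00348, 0.00200 and 3.5e-05. In control culture 4 of the 20 were higher (F3, AMOTL2, GADD45A and CCDC80) and 3 lower (IGFBP3, ASAP1 and CRIM1), beside 26.2% of all genes called. The calls of CCDC80 and CRIM1 did not hold without CFPAC-1 control 2 and 3. CTGF, MYOF and LATS2 were called in neither comparison.

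**Figure D5:**
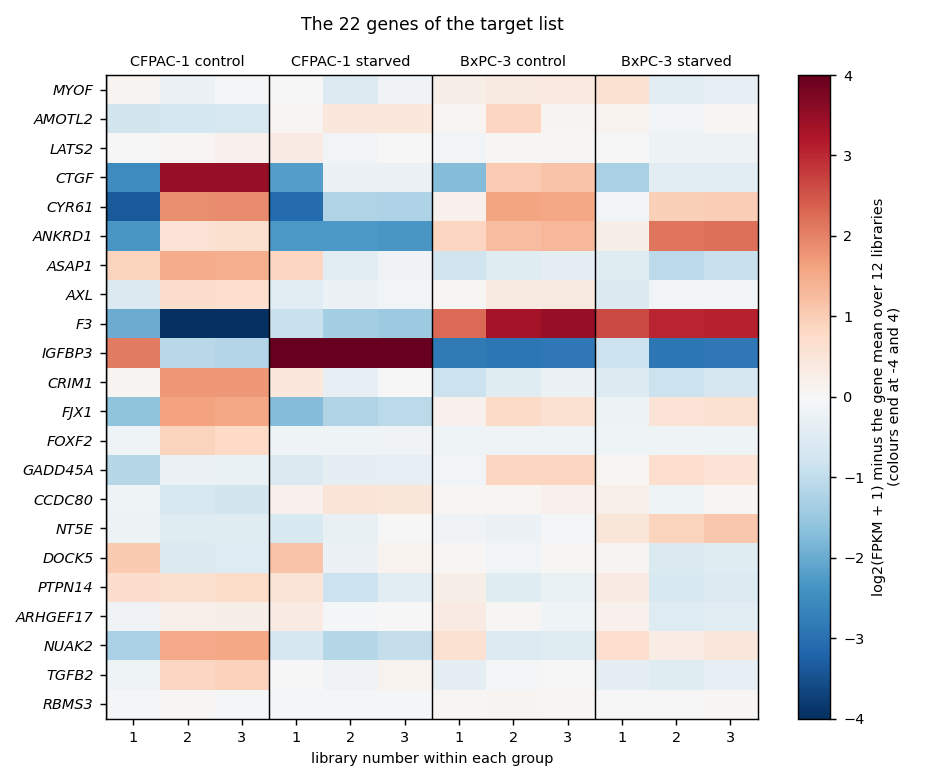
Heat map of the 22 target genes over the 12 libraries, coloured by log2(FPKM + 1) minus the gene's own mean over the libraries, with colours ending at -4 and 4. F3 is high in BxPC-3 and IGFBP3 in starved CFPAC-1. CTGF is highest in CFPAC-1 control 2 and 3, and CYR61 is high there and nearly as high in BxPC-3 control 2 and 3.

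For 2 members the genes of most similar profile were sought among the 6059 tested genes with a symbol and a mean of at least 5 FPKM, as the smallest SD over the 12 libraries of the difference in log2(FPKM + 1). Closest to YAP1 were UGGT1 (SD 0.129), HP1BP3 (0.141) and SRRM1 (0.147). Closest to CYR61 were CITED4 (0.521), TMEM156 (0.738) and FOXA2 (0.771). CYR61 therefore had no neighbour nearly as close as those of YAP1, whose own level moved little. FOXA2 ran from 0 to 18.5 FPKM and CITED4 from 1.86 to 57.7 FPKM. The libraries share their group and library number in these profiles, so likeness is given as a description.

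The position of each member is given on GRCh38 with GENCODE release 29. YAP1 lies on chromosome 11 from 102110461 to 102233423 (plus strand), TEAD1 on chromosome 11 from 12674591 to 12944483 (plus) and TEAD4 on chromosome 12 from 2959330 to 3040673 (plus). WWTR1 lies on chromosome 3 from 149517235 to 149736714 and AMOTL2 on chromosome 3 from 134355874 to 134375479, both minus. CYR61 spans 85580761 to 85583962 of chromosome 1 (plus), CTGF 131948176 to 131951373 of chromosome 6 (minus), ANKRD1 90912096 to 90921276 of chromosome 10 (minus), LATS2 20973032 to 21061547 of chromosome 13 (minus) and AXL 41219203 to 41261766 of chromosome 19 (plus). The use of strand in counting is not given in the sources used here, so reads from overlapping genes cannot be told apart. An antisense gene shares 9.97% of the exon bases of YAP1 (AP000942.2), 9.45% of WWTR1 (WWTR1-AS1), 8.34% of CTGF (AL133346.1) and 1.3% of AXL (AC011510.1), and the pseudogene RPL39P5 lies over 3.12% of those of AMOTL2.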

How the data were processed

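Total RNA had been extracted with TRIzol and sequenced on the Illumina platform, per the labels' protocols. The authors deposited 1 table of log2(FPKM + 1) for 60564 genes and 12 libraries, per the file headers and the values, and FPKM was recovered from it. FastQC, StringTie and GRCh38 are named in the submitters' processing notes, without versions; which aligner, annotation and strand setting were used is not given in the sources used here. Because FPKM is a share of a library, abundant transcripts lower all others, and 11.6% to 34.0% of the summed FPKM lay in mitochondrially encoded genes. Fragments per library (16400000 to 25900000) were estimated from the spacing of low FPKM values of genes with 1 transcript. In the libraries 34.9% to 39.6% of those values lay within 0.1 of a whole number of fragments, where 20% would by chance spacing, so whole reads were not recovered and no count test was run.

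Genes with at least 1 FPKM in at least 3 libraries (12860) were fitted with limma 3.58.1 in R 4.3.3, as 4 group means over all 12 libraries with 8 residual degrees of freedom. Tests were two-sided, adjusted by Benjamini-Hochberg over all tested genes, with a threshold of 0.05. Between the lines, same-numbered libraries deviated together from their group means (r 0.119 to 0.162 in control culture and 0.125 to 0.287 when starved). This likeness comes from the data and not from a label. The main fit, which gave the p-values between the lines, did not pair them. Only the alternative with the library number as a block did. Log2 changes are differences of mean log2(FPKM + 1), which understate changes of low genes. Scripts were tested on simulated data. The alternatives were no filter, a mean of at least 5 FPKM, a pseudocount of 0.1, scaling without mitochondrial genes, quantile normalization, trend and robust variance, a replicate block, only the groups compared, and libraries left out. Named are the 10 members; on the Hippo, TEAD, angiomotin, target, CCN, TAM and ankyrin lists, up to 5 genes called per comparison; TEAD2, TEAD3, LATS1, AMOT, AMOTL1 and VGLL4 always; and the 3 nearest profiles to YAP1 and CYR61. WISP2, GAS6 in control culture and MYOF were named after their values were seen. The members and lists were chosen with earlier results of these data known. Coordinates came from GENCODE release 29, which held 96.5% of the identifiers, and promoter sequences from RefSeq (GRCh38.p14).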

Additional observations from a re-analysis of the deposited data

Results flagged for a closer look

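AMOTL2 was the member whose starvation difference differed between the lines by a test of the difference itself. The difference of the log2 changes, BxPC-3 minus CFPAC-1, was -1.33 (standard error 0.31, limma adjusted p = 0.0466), with AMOTL2 higher in 3 of 3 starved CFPAC-1 libraries than in any control and overlapping groups in BxPC-3. BxPC-3 control 2, at 26.5 FPKM against 15.1 and 15.2 FPKM in the other controls, enters this value, and without it the difference was -1.08 (adjusted p = 0.113). The call was lost in 8 of the 12 fits that left out 1 library, and by limma also with the library number as a block (adjusted p = 0.0560), without a filter (0.0720), with a pseudocount of 0.1 (0.0667), without CFPAC-1 control 2 and 3 (0.142) and with libraries 2 and 3 averaged (0.876).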

How the results depend on the processing

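The limits are those of 3 libraries a group, of which libraries 2 and 3 lay close together, and of values without counts. Changes below are starved minus control in CFPAC-1, then in BxPC-3, then their difference (BxPC-3 minus CFPAC-1), and BxPC-3 minus CFPAC-1 in control culture and when starved. With all libraries limma called 1, 0, 1, 1 and 2 members and 2138, 43, 315, 3372 and 4660 genes in these 5 comparisons. Of the alternatives, using only libraries 2 and 3 and averaging them were chosen after seeing the data. The cause of each shift was not tested, except that fewer genes or samples entered under a filter or a left-out library.

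Without CFPAC-1 control 2 and 3 the members called were 0 for CFPAC-1, 0 for the difference and 4 between lines in control culture, and the genes 222 for CFPAC-1 and 55 for the difference (1 and 2 members had an unadjusted p below 0.05). In CFPAC-1, CYR61 turned to 1.52, CTGF to 1.64, ANKRD1 to 0.027, LATS2 to 0.095 and AXL to 0.31. In the difference WWTR1 turned to -0.69, CYR61 to -2.01, CTGF to -2.51 and AXL to -0.83. Between lines in control culture WWTR1 turned to 1.00, CTGF to 2.67, LATS2 to 0.020 and AXL to 0.83.

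With only libraries 2 and 3 of each group, members called were 8, 7, 7, 6 and 4 and genes 8714, 5396, 8023, 8420 and 8728. BxPC-3 YAP1 turned to -0.10 and the TEAD1 difference to -0.19. Between lines TEAD4 turned to -0.019 and CYR61 to -0.31 in control culture, and CTGF to -0.21 and AXL to 0.054 when starved. With libraries 2 and 3 averaged, limma called 0 members in each of the 5, 0, 0 and 0 genes in the first 3 and 839 and 1286 between lines (1, 0, 1, 1 and 2 members and 1487, 187, 657, 2691 and 3560 genes had an unadjusted p below 0.05). LATS2 turned to 0.086 in CFPAC-1, TEAD1 to 0.085 and TEAD4 to -0.014 in BxPC-3, AXL to -0.18 in the difference, and WWTR1 to 0.038 and AXL to 0.14 between lines in control culture.

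Without a filter genes called in BxPC-3 were 73 and the AMOTL2 difference was lost (0 members, 2 at an unadjusted p below 0.05 beside 13.1% of all genes). A mean of at least 5 FPKM, which drops TEAD1 and LATS2, gave 1329, 11, 162, 1681 and 2140 genes. A pseudocount of 0.1 gave 25 genes in BxPC-3 and 163 with 0 members in the difference (3 at an unadjusted p below 0.05 beside 23.3% of all genes). Fitting only the groups compared gave 364 genes in CFPAC-1 and 13 in BxPC-3. Between starved lines it gave 3 members (CYR61 added) and 5357 genes. Scaling to genes that are not mitochondrially encoded gave 2 members in CFPAC-1, turned BxPC-3 YAP1 to -0.0015 and AXL between starved lines to 0.047. Quantile normalization turned CFPAC-1 LATS2 to 0.092, BxPC-3 YAP1 to -0.0080, the differences of TEAD1 to -0.051 and of AXL to -0.16, and WWTR1 between lines in control culture to 0.030. Trend and robust variance changed no member's call.

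Replicate numbers did not clearly pair control with starved libraries. Deviations from the group means of same-numbered libraries correlated at -0.0617, -0.0198 and -0.0798 in CFPAC-1 and 0.151, 0.110 and 0.0535 in BxPC-3. Of 6 libraries, 0 and 3 correlated best with their own number. The higher BxPC-3 values lay near those between the lines in control culture, 0.119 to 0.162 with 4 of 6. With the number as a replicate block, 2 members were called in CFPAC-1 (AMOTL2, and ANKRD1 as lower) and 3 between starved lines (CYR61 added). In the difference 0 were called, with 4 at an unadjusted p below 0.05 beside 26.3% of all genes. No other call of a member changed. All genes called were 2428, 33, 306, 3606 and 4881.

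Leaving out 1 library at a time, CFPAC-1 members called ran from 0 to 6 and genes from 506 (without control 2) to 5403 (without control 1). The BxPC-3 genes ran from 2 (without control 3) to 249 (without control 1). The difference had 0 to 4 members and 0 to 4148 genes (without BxPC-3 control 2 and CFPAC-1 control 1), and the former had 2281 at an unadjusted p below 0.05. Between lines in control culture the members were 1 to 2 and the genes 2238 to 4818. Log2 changes that turned had these ranges: in CFPAC-1 TEAD1 -0.20 to 0.19 and LATS2 -0.13 to 0.083; in BxPC-3 YAP1 -0.19 to 0.21 and TEAD1 -0.34 to 0.49. In the difference they were WWTR1 -0.091 to 0.83, TEAD1 -0.27 to 0.55, LATS2 -0.21 to 0.0043 and AXL -0.21 to 0.43. Between lines in control culture they were WWTR1 -0.51 to 0.41, TEAD1 -0.21 to 0.61, TEAD4 -0.048 to 0.17, CYR61 -0.77 to 1.85 and AXL -0.43 to 0.21. When starved they were CTGF -0.50 to 0.49 and AXL -0.10 to 0.14.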

Other observations

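The families around the members held further differences. Of the 6 CCN genes, which include CYR61 and CTGF, 2 were tested and 0 passed for starvation in either line by limma, nor did any at an unadjusted p below 0.05. Over all genes 16.6% passed in CFPAC-1 and 0.334% in BxPC-3, and 36% and 8.52% at an unadjusted p below 0.05. WISP2, a CCN gene that did not reach the level for testing, was listed at 11.1 and 11.6 FPKM in CFPAC-1 control 2 and 3 and did not exceed 0.206 FPKM in the other 10 libraries. ANKRD1 was the 1 gene of 3 in the muscle ankyrin repeat family that was tested.

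Of the 5 TAM receptors and ligands, all tested, 1 fell in starved CFPAC-1, beside 16.6% of all genes called. MERTK, a receptor related to AXL, fell by 1.24 (limma adjusted p = 0.0280), from 0.946, 3.99 and 4.17 to 0.720, 0.409 and 0.563 FPKM. Without control 2 and 3 it differed by -0.32 (adjusted p = 0.560). Between the lines in control culture 2 of the 5 were lower in BxPC-3 (PROS1 and MERTK), beside 26.2% of all genes called. MERTK had 0.581 to 1.01 FPKM in the BxPC-3 controls. CFPAC-1 control 1, at 0.946 FPKM, lay within that range, and only CFPAC-1 control 2 and 3 lay above it. When starved 1 was higher (GAS6) and 1 lower (PROS1), beside 36.2%. PROS1 (protein S) stood at 3.96 to 9.68 FPKM in CFPAC-1 and at 0.0398 to 0.351 FPKM in BxPC-3, lower in BxPC-3 with differences of -2.47 in control culture and -2.86 when starved (adjusted p = 0.00014 and 4.1e-05). GAS6 was higher in starved BxPC-3, 5.71 to 7.71 against 0.161 to 0.337 FPKM, by 2.67 (adjusted p = 0.00535), while in control culture CFPAC-1 had 0.0767, 6.90 and 6.94 FPKM.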
